A study of Drosophila melanogaster and Drosophila ananassae and Drosophila pseudoobscura with 52 samples.

Results

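DGRP line 325 is one of 8 inbred D. melanogaster (D.mel) lines of the Drosophila Genetic Reference Panel in which RNA editing levels were measured. Its 2 libraries, out of 16 libraries of the panel and 52 samples of the series, were chosen by the line number in the labels, and they were set against the 14 libraries of lines 26, 352, 441, 721, 774, 786 and 804. Every library came from whole bodies of 10 adult males about 5 days after eclosion, and no treatment or transgene was given for any line. Each inbred line is 1 genotype, so a difference between line 325 and the others is a difference from 7 genotypes and not from the species at large. Flies were collected for each sample per the methods, and the replicates of the species comparison are described as biological apart from marked ones. Which kind the replicates of the lines are is not stated in the same way, and the table heads both columns of line 721 with the number M2. The p-values below measure the spread between the libraries of a line, which may be technical for some lines.

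A-to-I editing is catalysed by ADAR, an enzyme that binds double-stranded RNA and deaminates adenosine to inosine, which is read as guanosine. Flies have a single Adar gene, and it is best known for editing mRNAs of the nervous system, among them those of ion channels and synaptic proteins. The level of a site depends on the sequence next to the adenosine and on the stem that the surrounding RNA forms, so it can differ between genotypes. In mmPCR-seq, chosen loci are amplified from cDNA by microfluidic multiplex PCR and sequenced, and the editing level is the share of reads with G at the site. A G in the DNA of a line would be read in the same way. No genome sequence of the lines was used, so for the sites near 0% or 100% an allele of the genome and an editing level cannot be told apart. The same holds for levels in between if the pooled flies of a line still carry both alleles. Tissue markers could not be checked, since the tables hold no expression values.

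Of 2380 exonic sites, 630 had a level in both libraries of line 325 and 556 had a level in all 16 libraries. No site had a level in line 325 alone, and no site was missing in line 325 while present in all 14 others. Among the 556 sites, 478 had a mean level of at least 1% and were tested. Positions are given in the dm3 assembly, as in the deposited tables, and sites are named here by their place in the comparison. Hi1 to Hi12 are the sites called higher and Lo1 to Lo9 those called lower at which both libraries of line 325 lay outside the range of the 14 others, in order of the size of the difference. Sh1 to Sh23 are the remaining called sites, at which line 325 overlapped other libraries, and these were singled out after their values were seen.

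Several of the named sites lie a few bases apart and share the nearest primer pair, so that their levels are not separate measurements of independent loci. The designed pairs for the groups of neighbouring sites, and for the X site with the largest difference, are printed 5′ to 3′ in lower case to show which sites share a nearest pair.
Hi1 and Hi6 (arm 3R), forward primer: tacacctcgttagggtaaggt
Hi1 and Hi6 (arm 3R), reverse primer: cgcagggtgcaatttgtt
Hi10 and Hi11 (chromosome 4), forward primer: actgagatcggaggagactt
Hi10 and Hi11 (chromosome 4), reverse primer: gttgaaaggcctgctacattc
Sh16 (chromosome 4), forward primer: cgtgaagtaggcagcaaca
Sh16 (chromosome 4), reverse primer: cgtagcggtttcacaatcaat
Lo4 and Lo6 (arm 2L), forward primer: gatcagcatgtgagcactct
Lo4 and Lo6 (arm 2L), reverse primer: caaagtggccgctgttcc
Lo5, Lo7 and Sh22 (arm 3R), forward primer: ttagtctgttggaggcgttga
Lo5, Lo7 and Sh22 (arm 3R), reverse primer: cgatctggcccatcttgaac
Sh1 (chromosome X), forward primer: caccagctgaccaggaga
Sh1 (chromosome X), reverse primer: ggagctgatgatgtctggtct
Sh16 lies 77 bp from Hi10 on chromosome 4, and the pair nearest to it was a different one. Both amplicons may span Hi10, Hi11 and Sh16, and which of them gave each level is not known. A primer target was found within 100 bp of each of the 44 called sites.

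The first comparison was of the general level of editing. The mean level over the 556 sites was 22.3% and 22.2% in the libraries of line 325 and between 20.2% and 23.2% in the 14 others. The mean of line 325 was 22.2%, against 21.5% for the mean of the other 7 lines, a difference of 0.774 percentage points that was smaller than the spread between those lines (SD 0.835 percentage points, n = 7). An exact two-sided permutation over the 8 lines gave p = 0.625, and with 8 lines it cannot go below 1 in 8 and so cannot pass 0.05. Line 325 was thus not separated from the other lines in its general level of editing.

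The order of sites by level was also much alike. Spearman's rho over the 556 sites was 0.984 between the 2 libraries of line 325 and averaged 0.951 between line 325 and the other lines, which describes sites of shared loci and is no test. It was highest with line 804 (0.961) and lowest with line 774 (0.927). For the other lines this mean lay between 0.923 (line 774) and 0.952 (line 352). The median difference between the libraries of line 325 was 1.40 percentage points, and 15 of the 556 sites differed between them by more than 10 percentage points. Line 774 stood apart from the rest, with a rho of 0.911 between its own libraries and 80 such sites.

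Single sites did differ. With limma's moderated test and Benjamini-Hochberg adjustment, 44 of 478 sites (9.21%) were called between line 325 and the mean of the other 7 lines, 27 of them higher (5.65%) and 17 lower (3.56%) in line 325. The median absolute difference was 8.75 percentage points at the called sites and 1.63 percentage points at all tested sites. At 17 called sites it was at least 10 percentage points, and at 9 it was under 5 percentage points. Of the called sites 61.4% were higher in line 325, beside 57.5% of all tested sites with a positive log2 difference. The test scale is log2 of edited over unedited share with an offset of 0.01, and a difference on that scale is called log2 difference below.

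**Figure D1:**
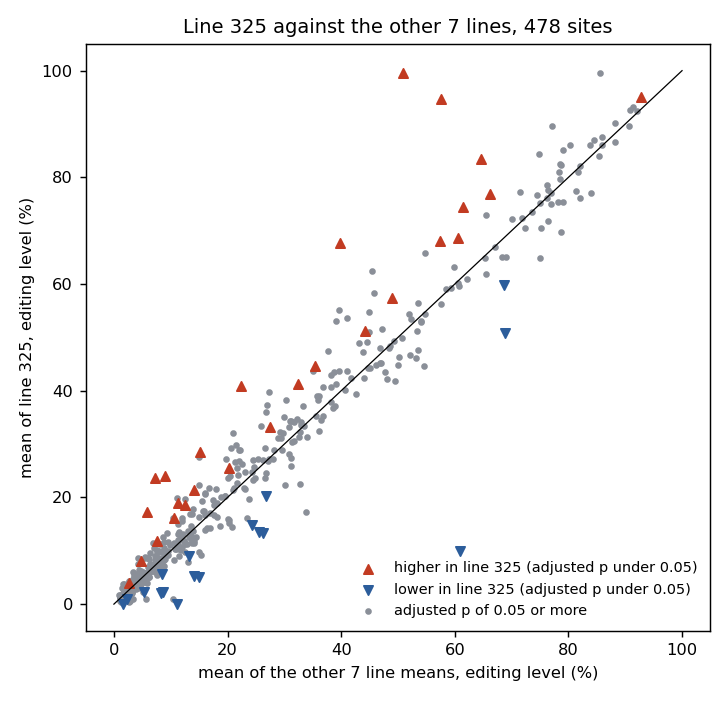
Mean editing level (%) of line 325 (2 libraries, vertical axis) against the mean of the other 7 line means (horizontal axis) at the 478 tested sites. Triangles mark the 27 sites called higher and the 17 called lower with limma, the diagonal marks equal levels, and most sites lie close to it.

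Line 325 had the second most calls of the 8 lines. The same fit called 34 sites (7.11%) for line 26, 18 (3.77%) for line 352, 24 (5.02%) for line 441, 32 (6.69%) for line 721, 70 (14.6%) for line 774, 26 (5.44%) for line 786 and 22 (4.6%) for line 804, each against the remaining 7. Line 774, with the most calls, was also the line whose libraries differed most from each other. These comparisons share all 16 libraries and their counts are given side by side without a test.

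**Figure D2:**
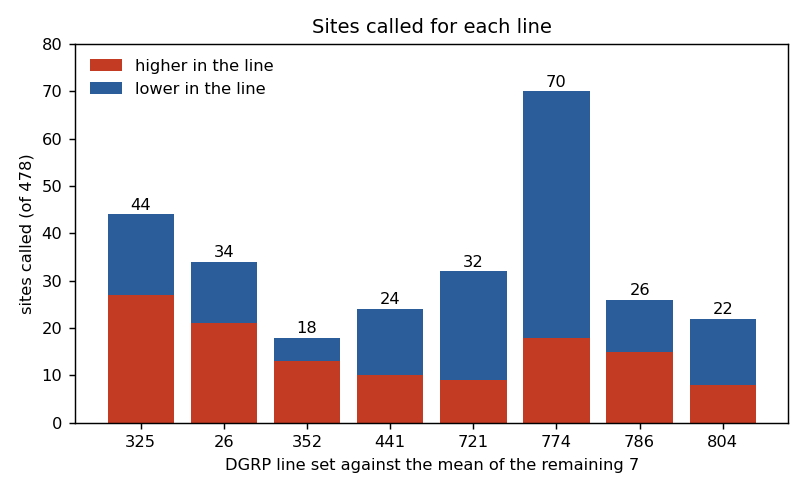
Number of sites, of 478, called for each line against the mean of the remaining 7, with line 325 at the left. The lower part of each bar counts sites higher in the line and the upper part sites lower in it, and line 325 (44) stands between line 774 (70) and line 26 (34).

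Against single lines, line 325 differed at 26 sites from line 26 (5.44%), 20 from line 352 (4.18%), 31 from line 441 (6.49%), 32 from line 721 (6.69%), 58 from line 774 (12.1%), 31 from line 786 (6.49%) and 26 from line 804 (5.44%). These 7 comparisons share the libraries of line 325. Of the 44 called sites, 6 passed against 1 other line in the larger direction, 9 against 2 lines, 12 against 3, 11 against 4, 3 against 5 and 3 against 6. No site passed against all 7 lines. Most calls thus passed against some of the lines and not against each of them. Each single comparison rests on 2 libraries against 2, so a line that did not pass was not shown to be alike. By line means, line 325 was the highest of the 8 at 18 called sites and the lowest at 12.

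Whether the libraries overlapped was counted without a test. Both libraries of line 325 lay outside the range of the other 14 at 29 of 556 sites (5.22%), above it at 18 (3.24%) and below it at 11 (1.98%). The same count was between 12 sites for line 352 (2.16%) and 33 sites for line 774 (5.94%) among the other lines. Of the 29 sites, 21 were also called by limma, and these are the sites Hi1 to Hi12 and Lo1 to Lo9. The remaining 23 called sites overlapped at least 1 library of another line.

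**Figure D3:**
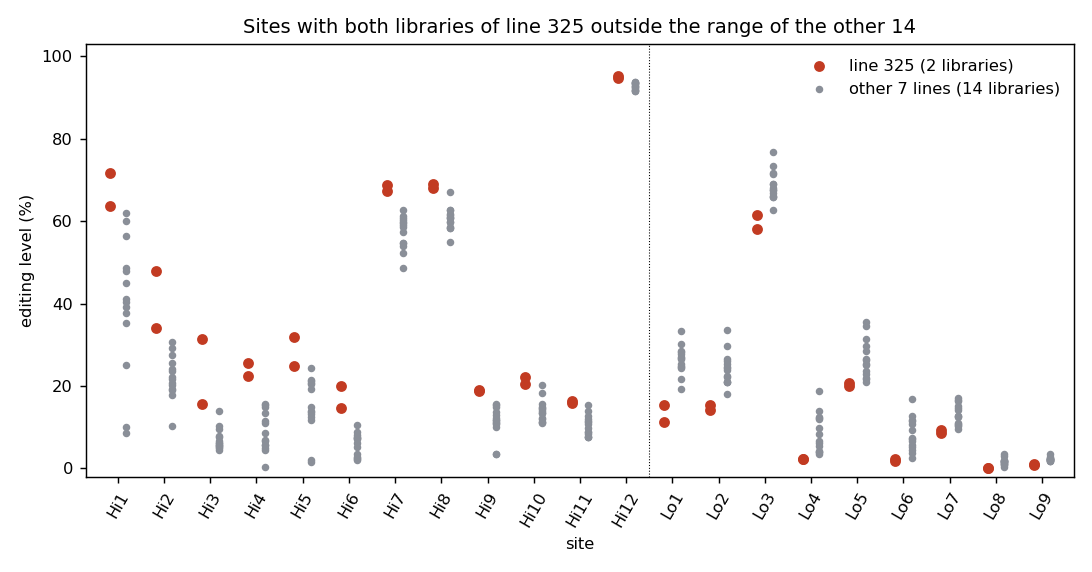
Editing level (%) in each library at the 21 called sites where both libraries of line 325 (left, large points) lay outside the range of the 14 libraries of the other 7 lines (right, small points). Sites Hi1 to Hi12 were called higher and Lo1 to Lo9 lower in line 325, and the gap to the nearest other library is small at most of them.

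The largest of these differences was on arm 3R. Hi1, at position 26872226, was edited at 63.6% and 71.7% in line 325, against a lowest level of 8.6%, a median of 40.8% and a highest level of 61.9% in the other 14 libraries. The other lines were spread over most of that range, from 9.35% in line 721 to 59.1% in line 352. The difference was 27.8 percentage points (log2 difference 1.76 ± 0.25 SE, limma, Benjamini-Hochberg adjusted p = 0.0017), and 4 single lines passed. The limma adjusted p was 0.0629 without the second library of line 325, which ends the call, and 0.483 with the spread between lines in the error.

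The adenosine next to it followed the same direction. Hi6, at position 26872227, had levels of 20.1% and 14.6% in line 325, against 2.0% to 10.5% with a median of 6.7% in the other libraries (log2 difference 1.72 ± 0.34 SE, limma adjusted p = 0.01). In line 721, both sites were at their lowest. The 2 further measured sites of this group did not pass. The site at 26872209 had 7.0% and 0.4% in line 325, against 0.2% to 4.7% elsewhere, and the site at 26872222 had 0.0% and 0.7%, against 0.2% to 11.1% elsewhere. At 26872209 the libraries of line 325 disagreed, with one above all 14 others and one within their range. No test of the difference between positions was run.

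Among these 21 sites, Hi3 and Lo2 separated line 325 from the most lines, with 6 of 7 passing the single comparisons, as many as at Sh1. Hi3, at 2R position 8646087, was edited at 15.7% and 31.5% in line 325 and at 4.4% to 13.9% with a median of 6.25% in the other libraries. The libraries of line 325 differed from each other by more than the whole range of the others here, yet neither of them overlapped it. The difference was 16.4 percentage points (log2 difference 1.86 ± 0.31 SE, limma adjusted p = 0.0037), and limma gave an adjusted p of 0.0863 without the second library of line 325. Lo2, at 3L position 5739872, was edited at 14.3% and 15.4% in line 325 and at 18.1% to 33.5% with a median of 24.1% in the others (log2 difference -0.83 ± 0.11 SE, limma adjusted p = 0.0013). The difference was -9.42 percentage points, and the call remained when either library of line 325 was left out (limma adjusted p = 0.0308 and 0.0206). The site 24 bp from it was at 0.4% and 0.2% in line 325 and at 0.2% to 1.1% in the others, under the level needed for the test.

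Hi5 and Hi7 lie on arm 2L. Hi5, at position 6779407, had levels of 32.0% and 24.9% in line 325, against 1.6% to 24.5% with a median of 14.5% in the others, and the smallest adjusted p of the 21 sites (log2 difference 1.33 ± 0.14 SE, limma adjusted p = 0.000192). Line 26 came within 0.4 percentage points of line 325 in its higher library at this site, while line 441 averaged 1.85%. Hi7, at position 15651359, had 68.8% and 67.4% in line 325, against 48.6% to 62.7% with a median of 58.9% in the others (log2 difference 0.65 ± 0.14 SE, limma adjusted p = 0.0163). Hi7 was thus a site at which every line was edited at a high level and line 325 at the highest.

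On arm 2R, 13 of the 14 called sites were higher in line 325, beside 120 tested sites, of which 11.7% were called. Most tested sites of this arm, called or not, had a positive log2 difference, as did 57.5% of all tested sites. Some of the 14 are neighbours, such as Sh12 and Sh23, 10 bp apart with the same nearest primer target, and are not separate loci. Hi2, at position 11652804, had 34.0% and 47.9% in line 325, against 10.3% to 30.7% in the others (limma adjusted p = 0.0456). Hi4, at position 11662602, had 22.4% and 25.5%, against 0.4% to 15.7% (limma adjusted p = 0.0449). Hi9, at position 2620725, had 18.9% and 19.0%, against 3.4% to 15.6% (limma adjusted p = 0.00216). Hi2 and Hi4 were just inside the threshold, since the largest adjusted p of a called site was 0.0456 and the smallest of a site not called was 0.0521. Both calls ended at an offset of 0.001 (limma adjusted p = 0.0559 for Hi2 and 0.119 for Hi4) and without either library of line 325, and of 21 fits without other libraries or lines Hi2 passed in 3 and Hi4 in 6. Hi12, at position 7335112, was edited almost fully in every line, at 94.8% and 95.2% in line 325 and 91.5% to 93.8% in the others (limma adjusted p = 0.0185). Its difference was 2.21 percentage points, and none of the 5 other sites within 16 bp of it was called.

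Chromosome 4 held few measured sites and most of them were higher in line 325. Of 6 tested sites there, 4 were called and all 4 were higher (66.7% called, beside 9.21% of all tested sites). Hi10, Hi11 and Sh16 lie within 77 bp and are not separate loci, so this share does not count independent sites. Hi10, at position 787813, had levels of 22.1% and 20.6% in line 325, against 11.1% to 20.2% with a median of 13.7% in the others (log2 difference 0.72 ± 0.14 SE, limma adjusted p = 0.00851). Hi11, 12 bp further, had 15.9% and 16.4%, against 7.6% to 15.5% (limma adjusted p = 0.0172). Sh16, 77 bp from Hi10, had 18.9% and 18.1%, against 9.0% to 18.2% (limma adjusted p = 0.0172). Line 352 was next to line 325 at all 3 of these sites, with means of 19.3%, 14.7% and 17.5%, and the other 6 lines lay below both. The fourth site, Hi8 at position 768364, was at 69.1% and 68.0% in line 325, against 55.0% to 67.1% with a median of 60.8% (limma adjusted p = 0.0262).

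The 2 chromosome 4 sites that were not called lay further along the chromosome. The site at position 895009 had 49.3% and 44.0% in line 325, against 43.4% to 60.4% in the others (limma adjusted p = 0.234). The site at position 1268833 had 46.6% and 43.2%, against 43.4% to 51.8% (limma adjusted p = 0.828). Both had a mean difference below 0, so the higher levels were not shared by all 6 tested sites of the chromosome.

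**Figure D4:**
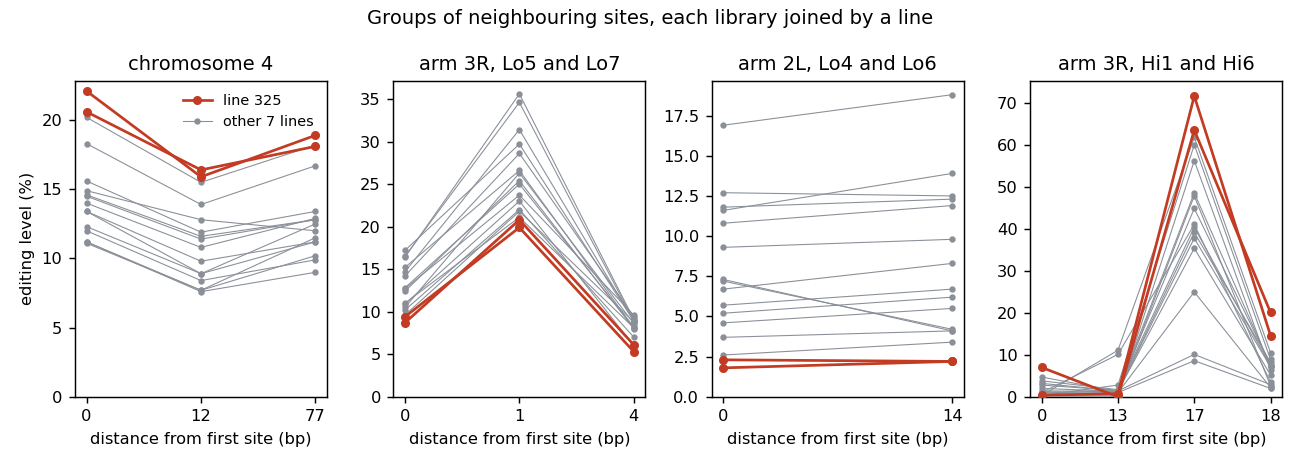
Editing level (%) at 4 groups of neighbouring sites against their distance from the first site of the group (bp, positions evenly spaced and not to scale). Lines join the sites of 1 library, with line 325 drawn thick and the other 14 libraries thin, and line 325 lies at or close to the top on chromosome 4 and at Hi1 and Hi6, and at the bottom or close to it in the Lo5 and Lo7 group and the Lo4 and Lo6 group.

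Of the sites with lower levels, 2 groups held neighbours that were called in the same direction. Lo7, Lo5 and Sh22 lie within 4 bp of each other on arm 3R, at positions 15056818, 15056819 and 15056822. Lo5 had levels of 20.8% and 19.9% in line 325, against 21.1% to 35.6% with a median of 25.9% in the others (log2 difference -0.48 ± 0.11 SE, limma adjusted p = 0.0193). Lo7 had 8.7% and 9.4%, against 9.6% to 17.2% (limma adjusted p = 0.0325), and Sh22 had 6.1% and 5.3%, against 6.0% to 9.6% (limma adjusted p = 0.0172). The gap between line 325 and the nearest other library was 0.3 percentage points or less at Lo5 and Lo7, so these are sites at one end of a range and not sites with a level of their own. Of 21 fits without other libraries or lines, Lo5 passed in 20 and Lo7 in 12, and the highest limma adjusted p was 0.0831 for both.

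Lo4 and Lo6 lie 14 bp apart on arm 2L, at positions 3503650 and 3503636. Lo4 was at 2.2% in both libraries of line 325, against 3.4% to 18.8% with a median of 7.5% in the others (log2 difference -1.55 ± 0.31 SE, limma adjusted p = 0.0107). Lo6 was at 2.3% and 1.8%, against 2.6% to 16.9% with a median of 7.25% (log2 difference -1.58 ± 0.32 SE, limma adjusted p = 0.0114). Line 774 was highest at both, with means of 15.7% and 14.8%. Neither site passed on untransformed levels.

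Lo1 and Lo3 had no other tested site within 100 bp. Lo1, at 2R position 17508354, had 15.4% and 11.2% in line 325, against 19.4% to 33.3% with a median of 26.7% in the others (log2 difference -1.17 ± 0.23 SE, limma adjusted p = 0.0105). It was the one called site of arm 2R that was lower in line 325, and the means of the other lines lay close together, from 24.7% to 28.6%. The 3 tested sites 225 to 227 bp from Lo1 had differences below 0 too, and none was called. The middle one, at 17508580, had 17.7% and 16.7% in line 325, below all 14 others (limma adjusted p = 0.06). Lo3, at 3R position 14797034, had 61.5% and 58.2%, against 62.8% to 76.8% with a median of 67.9% (log2 difference -0.55 ± 0.13 SE, limma adjusted p = 0.0186).

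Lo8 and Lo9 were sites of very low level. Lo8, at X position 5290568, was listed at 0 in both libraries of line 325 and at 0.3% to 3.5% with a median of 1.65% in the others (limma adjusted p = 0.00751). The authors quantified sites covered by at least 50 reads, and read counts beyond that minimum were not used here. The exact limit that a 0 allows is therefore unknown. The targeted site 16 bp before Lo8 was edited at 25.1% and 35.6% in line 325, against 19.5% to 42.2% in the others, and was not called. Lo9, at 3L position 9826466, had 0.9% and 1.2%, against 1.9% to 3.6% (limma adjusted p = 0.0172). Of 11 tested sites within 100 bp of Lo9 none was called lower, 6 had differences below 0 and 5 above it, and Sh15, at position 9826559, was called higher in line 325 (51.8% and 50.6%, against 28.0% to 53.3%, limma adjusted p = 0.0318). Neither low site passed on untransformed levels.

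Several of the largest differences were at sites where line 325 shared its level with other lines. Sh1, at X position 19107872, had 10.3% and 9.5% in line 325, and its mean was close to that of line 721 (9.65%), while lines 441 and 774 were near 24% and the other 4 lines between 90.7% and 93.3%. The difference from the mean of the other lines was -51.1 percentage points (limma adjusted p = 1.46e-08), but no line was at the mean of 61.0% to which line 325 was compared. Sh2, at 2R position 6168396, had 99.5% and 99.8% in line 325, as in lines 26 (99.8%) and 721 (99.9%), and between 17.4% and 70.2% in the other 5 lines. Sh3, at 2R position 5929235, had 93.7% and 95.8%, as in lines 352, 441, 774 and 786 (94.5% to 96.7%), against 6.65% to 7.3% in lines 26, 721 and 804. At these sites the contrast measured how the 8 lines fell into high, low and, at Sh1 and Sh2, intermediate levels, with line 325 at one of the ends.

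Sh8, at 2L position 13187842, was at 0.1% in both libraries of line 325. It was near 0 in lines 774, 786 and 804 too, with means of 0.05%, 0.3% and 0.1%, and between 16.6% and 20.6% in lines 26, 352, 441 and 721. Sh5, at 3L position 4590709, had 50.1% and 51.5% in line 325, 52.1% in line 352, 52.0% in line 721 and 57.3% in line 786, against 76.3% to 86.2% in lines 26, 441, 774 and 804. Line 325 was in the low set at both, but the lines it was grouped with differed from site to site: line 721 was with it at Sh1, Sh2 and Sh5 and apart from it at Sh3 and Sh8.

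Sh4 and Sh6, at 2R positions 9704884 and 9697052, gave a graded picture. Sh4 was at 81.6% and 85.4% in line 325, and the other libraries ran from 28.6% in line 804 to 88.0% in line 26. Sh6 was at 74.9% and 73.8%, and the others ran from 31.1% in line 804 to 83.0% in line 26. Line 325 was second to line 26 at both sites. At Sh7, 3L position 2126093, line 325 had 12.6% and 14.4%, close to line 441 (13.4%), against 17.9% to 40.7% in the other 6 lines.

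**Figure D5:**
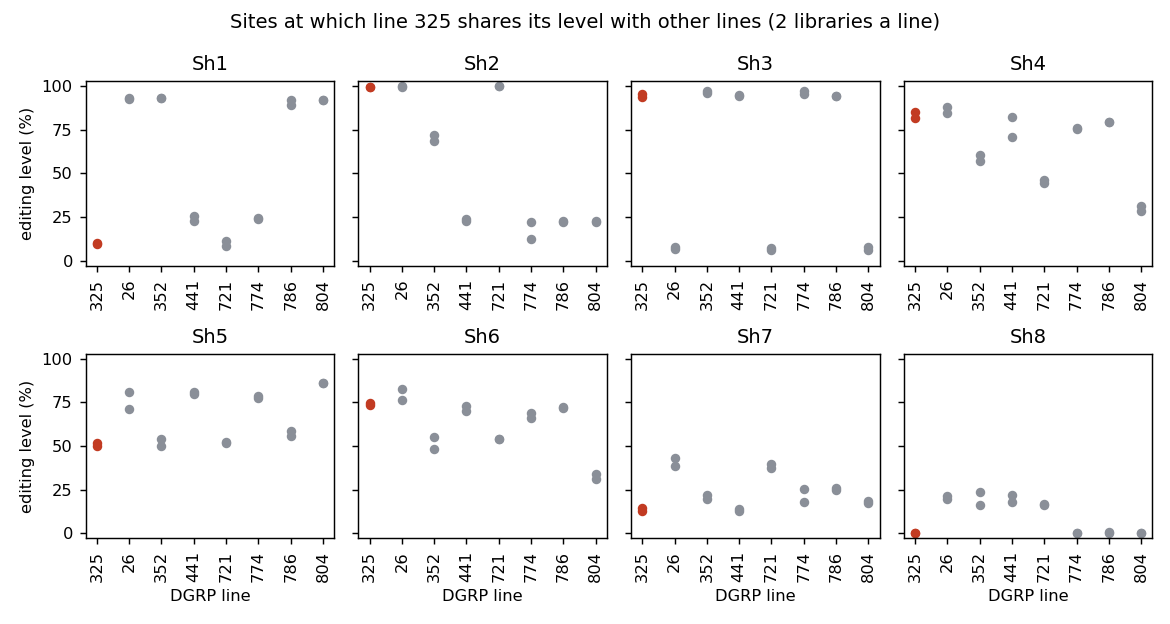
Editing level (%) in the 2 libraries of each line, line 325 at the left of each panel, at the 8 sites with the largest difference among called sites where line 325 overlapped other libraries. Levels fall into high and low sets of lines at Sh1, Sh2, Sh3, Sh5 and Sh8, with some lines in between at Sh1 and Sh2. Line 325 is joined at these sites by 1 to 4 other lines within 5 percentage points.

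What the called sites shared beyond these values was described by position and level. Of 354 tested sites with a neighbouring site within 50 bp, 29 were called (8.19%), and of 124 without one, 15 (12.1%). By arm, the share called was 11.3% on 2L, 11.7% on 2R, 6.90% on 3L, 11.0% on 3R and 3.31% on X, where 4 of 121 sites were called. Sites at which the other lines averaged under 5% were called in 4 of 109 cases (3.67%), and those at 20% to under 80% in 22 of 190 (11.6%). Chromosome 4 lay above and X below the share of all tested sites, with no test of either. The called sites of chromosome 4 include the neighbours Hi10, Hi11 and Sh16, which are not separate loci.

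The D.mel males of the species comparison gave a further genotype, with 1 value per site from the authors and no replicate values. Their level was nearer to line 325 than to the mean of the other 7 lines at 17 of 42 called sites with a level (40.5%), and at 208 of 424 tested sites (49.1%). At the sites where line 325 lay outside the other 14 libraries it was nearer at 2 of 19 (10.5%), and at the called sites with overlap at 15 of 23 (65.2%). The called sites and their split by overlap were chosen from the levels of line 325 itself. These shares follow in part from that choice and are no test. Line 325 averaged 23.6% at Hi3, 28.5% at Hi5, 21.4% at Hi10 and 16.2% at Hi11, where those males were at 5.8%, 2.4%, 11.3% and 8.0%. At Lo1 and Lo2 line 325 averaged 13.3% and 14.9%, and the males were at 27.9% and 30.2%. The males were close to line 325 at Hi12 (95.3%, beside 95.0% in line 325) and Lo3 (61.1%, beside 59.85%). The same held at Sh16, near Hi10 and Hi11 (18.3%, beside 18.5%). At Sh1 and Sh3 the same males were at 90.6% and 5.3%, in the set of lines opposite to line 325, whereas at Sh2 and Sh8 they were at 100% and 1.0%, in the set of line 325. D. simulans males were nearer to line 325 at 13 of 35 called sites (37.1%) and at 4 of 18 of those outside the other libraries (22.2%), beside 42.9% of tested sites with a level. The same limit from the choice of sites holds for these shares.

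How many sites are called depends on the source of the error term. In the fit described, the error is the spread between 2 libraries of a line. With line 325 set against the 14 other libraries as 1 group, so that the spread between lines enters the error, limma called 2 sites, Hi3 (adjusted p = 0.0194) and Lo1 (adjusted p = 0.014). In the fit first described, the calls of Hi3 and Lo1, like most others, did not hold in both fits that left out 1 library of line 325. Both held without the first library and ended without the second. Over the alternative fits, the log2 difference ran from 1.23 to 2.48 at Hi3 and from -1.42 to -0.92 at Lo1. With 1 library of line 325 left out, 15 sites passed without the first and 9 without the second, and no called site changed its direction.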

How the data were processed

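Total RNA of 10 male whole bodies per sample was reverse transcribed and amplified by mmPCR-seq. The authors aligned reads with TopHat to the dm3 assembly, per the labels, and quantified sites covered by at least 50 reads. Each deposited value is a fraction, the editing level of 1 site in 1 library, with no normalization between samples. They were converted to percent. In the table of the lines, 16 positions held the letters NA in place of 200 and were restored, which gave 3 tables with 2380 sites in common. No column was left unmapped (0). Read counts were not used here, so depth is unknown and no interval was computed. No dm3 genome was used, so sites were not placed in genes and the planned gene lists were not applied. Primers are those of the study's primer table, which lists 605 pairs for D.mel.

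Levels were transformed to log2((level + 0.01)/(1 - level + 0.01)) and fitted with limma 3.58.1 in R 4.3.3, with 1 mean per line and the contrast of line 325 minus the mean of the other 7 line means. A site entered the fit with 16 values and a mean of 1% or more. P-values are two-sided and Benjamini-Hochberg adjusted over 478 sites, with a threshold of 0.05. Named sites were the called ones with both libraries of line 325 outside the range of the other 14, up to 12 with the largest difference in each direction, with sites within 50 bp of the first 3 in each direction. The members and lists were chosen with earlier results of these data known. The fit was tested on simulated levels that held the spread between libraries of a line. Apart from changes added to line 325, the simulated lines did not differ, so that test does not cover the spread between lines. Alternatives were other offsets, filters and scales, a fit of 2 groups, a replicate block, and fits without single libraries or lines. Python 3.11.15 and matplotlib 3.10.9 were used for summaries and plots.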

Additional observations from a re-analysis of the deposited data

Results flagged for a closer look

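Values of single lines were set against the rest of their group by the gap to the nearest line over the whole range, a rule by which chance marks about 1 group in 20. Line 774 stood apart in its mean Spearman's rho with the other lines (0.923) and in the rho between its own 2 libraries (0.911), and line 325 did not. At 3 of the 21 sites where line 325 lay outside the other libraries, 1 of the other 7 lines stood apart from the remaining 6. At Hi3, where line 325 averaged 23.6%, this was line 774, with 11.8%, the nearest to line 325. At Hi10, where line 325 averaged 21.4%, it was line 352, with 19.3%, also the nearest. At Hi9, where line 325 averaged 19.0%, it was line 26, with 3.45%, below all the remaining lines.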

How the results depend on the processing

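Of 44 calls, none changed sign under any alternative run. Counts stayed between 40 and 50 under offsets of 0.001 (40) and 0.05 (49), untransformed levels (42), no filter on the mean (48), a mean of at least 5% (47), replicate differences of at most 10 percentage points (46 of 349 sites), a trend in the prior variance (44) and the replicate block (50). With the spread between lines in the error, 2 sites were called, 1 higher and 1 lower. Leaving out single libraries or lines gave 9 to 79 sites, 3 to 55 higher and 6 to 24 lower. The fewest, 15 (8 higher and 7 lower) and 9 (3 higher and 6 lower), were without the first and without the second library of line 325, and the most, 79 (55 higher) and 66 (43 higher), were without the first and without the second library of line 774. Without both libraries of line 721, 33 were called, 17 of them higher. The cause was not tested. The replicate block shared 42 calls with the fit without it, and of the 21 named sites Hi2 was lost. The numbers are not known to pair libraries: the correlation of library differences between 2 lines ran from -0.129 to 0.315 over 21 pairs of 7 lines, and 12 were over 0.1. Hi2 and Hi4 were lost at an offset of 0.001, Lo9 at 0.05, Hi12 with the trend, and Lo4, Lo6, Lo8 and Lo9 on untransformed levels. Hi4 passed in 6, Hi2 in 3 and Lo7 in 12 of 21 fits without other libraries or lines, and Hi8 and Lo5 were lost in at least 1 of them. The similarity of line 325 to the other lines, as mean rho, was 0.934 over sites of at least 1% and 0.951 over all 556. Unknown read depth limits what can be said of levels near 0%.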

Other observations

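At 8 sites both libraries of line 325 lay outside the other 14 without passing the limma test, 6 above and 2 below. The largest such difference was at X position 9468688, with 62.4% in both libraries of line 325, against a median of 46.8% and a highest level of 59.8% in the others (limma adjusted p = 0.0759). The site at 2R position 17508580 is the one 226 bp from Lo1, where the median of the others was 33.4%. At X position 10640521 line 325 had 30.4% and 28.3%, against a highest level of 28.0% in the others (limma adjusted p = 0.0558).

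A further 74 sites had a level in both libraries of line 325 but not in all 16 libraries. Of these, 44 had a level in at least 10 of the other libraries, and at 0 of them did line 325 lie outside the range of the others. Of the 78 sites with a mean under 1%, which were not tested, none was outside that range either.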
